A study of Mus musculus with 3 samples.

Results

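H60b, Pvr, Clec2d, Icam1, Ulbp1 and Cd274 encode surface proteins that natural killer (NK) cells and T cells read on a tumour cell. These 6 genes were taken by symbol from the array's probe annotation, and their log2 values were followed across the 3 columns of the series. Of the 6, 5 had a probe set listed under that gene alone (1 probe set each), among 19938 genes measured. Ulbp1, an NKG2D ligand also known as MULT1, had no probe set matched to it and is not analysed here. The genes were chosen as a group of immune ligands, with results of the same data already known.

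The cells were CT26, a mouse colon carcinoma line grown in medium with 10% fetal bovine serum. In the control group (miR-Ctrl, written Ctrl below) they carried a plasmid with a control microRNA. In the other groups the same kind of plasmid carried the miR-17~92 cluster, at medium (miR-17~92Med, Med) or high levels (miR-17~92Hi, Hi) by the submitters' description. All 3 groups went through transfection, puromycin selection, a sort for green fluorescence and growth from single cells, so each represents selected clones and not a mixed population. The series' design text gives 3 subclones per group, but the files hold 1 column per group, and the sources used here do not say how subclones enter a column. No difference below therefore has a measured error or a p-value, and clone, array and cluster level cannot be told apart.

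Tumour cells display activating and inhibitory ligands, and an NK cell responds to their balance. H60b and Ulbp1 are ligands of NKG2D, an activating receptor of NK cells and some T cells. Pvr (CD155) binds the activating receptor DNAM-1 and also the inhibitory receptors TIGIT and CD96. Clec2d (Clr-b) is the ligand of an inhibitory receptor of the NKR-P1 family and is known as a widely displayed signal that restrains NK cells. Icam1 binds the integrin LFA-1 and holds immune cell and target together. Cd274 (PD-L1) binds PD-1 and restrains T cells. Interferon-gamma is a known inducer of Cd274 and Icam1, and NF-kB of Icam1.

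The variable of the study was a microRNA cluster, so its 6 guide strands are shown with the seed (bases 2 to 8) in capitals. They fall into 4 seeds, with miR-17-5p and miR-20a-5p sharing one and miR-19a-3p and miR-19b-3p another. Sequences are from RefSeq, GRCm38.p6. No 3′ UTR was searched for matches to these seeds.
miR-17-5p: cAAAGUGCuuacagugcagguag
miR-20a-5p: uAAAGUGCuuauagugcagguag
miR-18a-5p: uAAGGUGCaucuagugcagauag
miR-19a-3p: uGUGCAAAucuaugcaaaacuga
miR-19b-3p: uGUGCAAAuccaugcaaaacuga
miR-92a-3p: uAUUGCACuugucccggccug

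The Ctrl column stood apart from the others over the whole array. Pearson's r across 35556 probe sets, a description of these columns, was 0.787 for Ctrl and Med, 0.795 for Ctrl and Hi, and 0.992 for Med and Hi. Olfactory and vomeronasal receptor genes (1194), which served as a gauge of background, reached a 95th percentile of 6.87 (Ctrl), 6.18 (Med) and 6.20 (Hi). The interquartile range of the probe sets was 2.42 (Ctrl), 3.12 (Med) and 3.08 (Hi). Values in Ctrl were thus less widely spread over the whole array, and every difference from Ctrl below includes this. The labelled tissue was only partly visible. Of 11 colon epithelial markers, 5 lay within the receptor range in every column, Epcam among them with 6.15 in Ctrl and 5.14 in Med and Hi, and 4 lay above it in every column. Of those 4, the keratin Krt18 was at 7.97, 11.41 and 12.28 and Krt19 at 7.50, 7.50 and 7.87. The others, Krt8 (8.92, 7.28 and 7.32) and Cdx1 (8.95, 7.24 and 7.45), were lower in Med and Hi. The median difference of the 11 from Ctrl was -1.01 in Med and -0.94 in Hi, and that of all genes measured -0.20 and -0.19. In a bulk culture, fewer cells of a kind and less RNA per cell cannot be told apart.

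Of the activating ligands, H60b had a higher level in Med and Hi than in Ctrl. Its log2 level was 6.27 (Ctrl), 8.63 (Med) and 8.44 (Hi). Med and Hi lay close together, and Ctrl lay below them and within the receptor range. The log2 difference from Ctrl came to 2.37 for Med (5.15-fold) and 2.17 for Hi (4.51-fold). Since a level in the receptor range may be background, the size of these differences is uncertain. Counted from the receptor genes' 95th percentile in Ctrl instead, they were 1.77 and 1.57. H60 genes are close relatives, and whether this probe set separates them was not tested.

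Pvr was higher in Med and Hi than in Ctrl. Its log2 level was 6.73 (Ctrl), 10.48 (Med) and 9.65 (Hi). The Ctrl value lay just within the receptor range, while both others lay far above theirs. The log2 difference from Ctrl came to 3.75 for Med (13.4-fold) and 2.92 for Hi (7.59-fold), or 3.61 and 2.78 counted from the receptor genes' 95th percentile. Hi minus Med was -0.83 on the log2 scale, a 1.77-fold lower level in Hi.

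Clec2d, the inhibitory ligand, was higher in Med and Hi than in Ctrl, and lower in Hi than in Med. Its log2 level was 5.58 (Ctrl), 9.86 (Med) and 8.23 (Hi). The Ctrl value lay well inside the receptor range and the other values above it, with Med the highest. The log2 difference from Ctrl came to 4.27 for Med (19.3-fold) and 2.65 for Hi (6.27-fold), or 2.99 and 1.36 from the receptor genes' 95th percentile. Counted that way the Med difference was smaller than that of Pvr and the Hi difference smaller than that of H60b, so no order of size among these 3 genes is read from Ctrl. Between Med and Hi the log2 difference was -1.63, which makes Clec2d 3.09-fold lower in Hi.

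Icam1, the adhesion ligand, went the other way and was lower in both miR-17~92 columns. Its log2 level was 8.34 (Ctrl), 7.05 (Med) and 7.14 (Hi), above the receptor range in each. The log2 difference from Ctrl came to -1.29 for Med (2.44-fold lower) and -1.20 for Hi (2.29-fold lower). Both fall just under 2-fold when each column is centred on the median of its probe sets (-0.99 and -0.91). Marker genes of blood cells, which are not part of a carcinoma line, lay on the same side. Of 22 markers of NK, T, B and myeloid cells matched, 21 were lower in Med and 21 in Hi than in Ctrl, with median differences of -0.72 and -0.74, and 6 were at least 2-fold lower in each. The exception in both was Cd68 (7.18, 9.12 and 7.67), named after its values were seen. The markers' levels in Ctrl ranged from 4.34 to 7.97 with a median of 5.96, and the leukocyte marker Ptprc was at 6.23 in Ctrl and 5.63 in Med and Hi. Other marker lists were shifted too. The median of 8 fibroblast and endothelial markers was -1.10 (Med) and -1.12 (Hi), with 6 lower and 2 higher than Ctrl in each. That of the colon markers was -1.01 and -0.94. Of genes past the expression filter described below, 8.7% (Med) and 8.4% (Hi) were at least 2-fold lower, though most blood cell markers did not pass it. Low values were lower in general: the median difference was -0.20 (Med) and -0.19 (Hi) over all genes measured. Over receptor genes it was -0.39 and -0.38, with 6.87% and 6.45% of them 2-fold apart. The part of the marker shift in the Icam1 difference was not tested.

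Cd274, the checkpoint ligand, differed from Ctrl by less than 2-fold in both columns. Its log2 level was 7.17 (Ctrl), 8.09 (Med) and 7.22 (Hi). Ctrl and Hi lay side by side and Med was the high one. The log2 difference from Ctrl came to 0.92 for Med (1.90-fold) and 0.05 for Hi (1.04-fold), and Hi minus Med was -0.87 (1.83-fold lower in Hi). The Med difference passes 2-fold when columns are centred on probe set medians (1.22) or under loess scaling (1.10). The Hi difference changes sign when columns are centred on the genes past the expression filter (-0.49). No direction against Ctrl is therefore given for Cd274 in Hi.

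**Figure D1:**
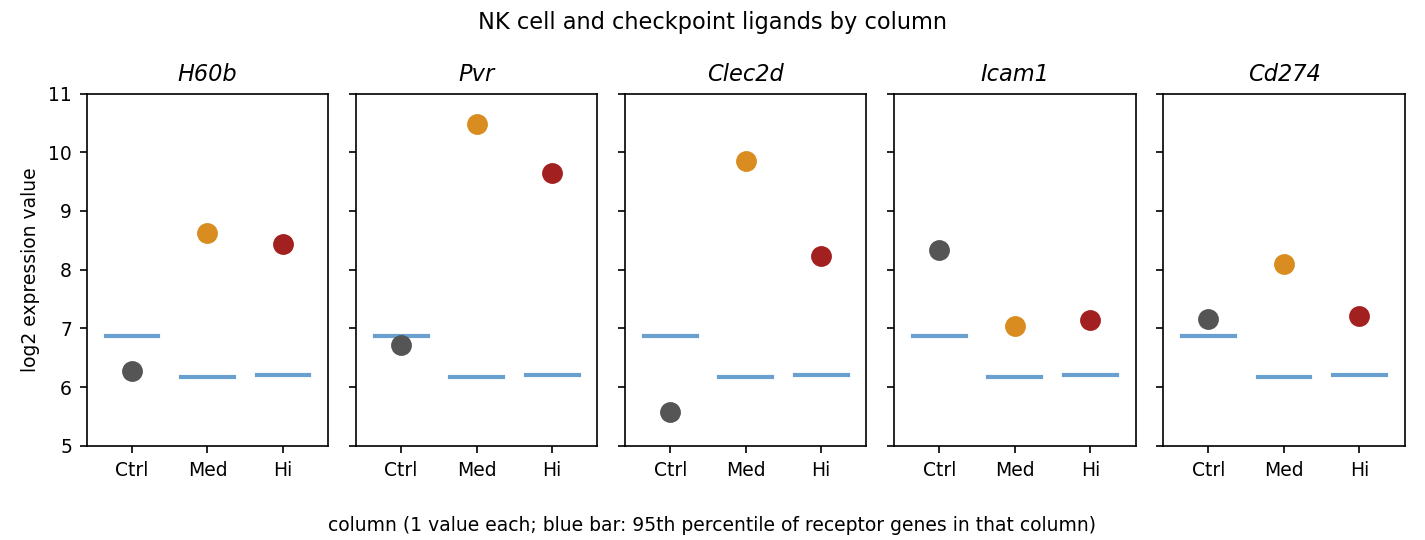
Each panel plots the log2 expression value (vertical axis) of 1 ligand gene in the Ctrl, Med and Hi columns, with 1 point per column and no replicates. Blue bars mark the 95th percentile of receptor genes in each column (6.87, 6.18 and 6.20): H60b, Pvr and Clec2d lie below the bar in Ctrl and above it in Med and Hi, while Icam1 is highest in Ctrl and Cd274 highest in Med.

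The members were then read against all genes. An expression filter at the median gene (a mean log2 value of 7.13) kept 9969 genes, and all 5 measured ligands passed it. A gene that is high in 1 or 2 columns passes more easily, so their passing supports nothing. In Med against Ctrl, 3 of the 5 were at least 2-fold higher (H60b, Pvr and Clec2d), where 34.9% of the genes were. Icam1 alone was at least 2-fold lower, where 8.7% were. In Hi against Ctrl the same 3 ligands were higher and Icam1 was lower, where 33.5% of all genes were higher and 8.4% lower. Both comparisons share the Ctrl column. The median difference of the 5 was 2.37 in Med and 2.17 in Hi, which in each is the value of H60b. That of all genes past the filter was 0.42 and 0.39. Since H60b, Pvr and Clec2d had Ctrl levels within the receptor range, no excess over all genes is read from these medians.

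A difference of 2-fold from Ctrl was thus common on this array, and ranks are given for the ligands whose Ctrl level lay above the receptor range. H60b, Pvr and Clec2d have none, since a Ctrl level within that range does not fix their place. Of 9969 genes, Icam1 had rank 481 from the bottom in Med and 545 in Hi. Cd274 stood in the middle, with 36.6% of genes further up in Med and 60.9% in Hi. Its Ctrl level lay only 0.30 above the receptor genes' 95th percentile. Of the 22 blood cell markers, 4 were higher than Cd274 in Ctrl, so its place is uncertain too.

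The scaling of the columns moves these shares. Centring on probe set medians raises every difference from Ctrl by 0.30 in Med and 0.29 in Hi, and centring on the genes past the filter lowers it by 0.60 and 0.54. Quantile normalization moved the median of genes past the filter by -0.48 and -0.43, and loess by -0.22 and -0.18. Of the genes 2-fold apart in Med against Ctrl, 80.0% were higher as deposited, 89.9% with probe set centring, 59.3% with quantile normalization and 56.7% with centring on genes past the filter. In Hi against Ctrl these shares were 79.9%, 90.7%, 60.2% and 57.7%. H60b, Pvr and Clec2d stayed at least 2-fold higher in both columns under the 4 other settings that can change their values. Taking the highest probe set of a gene leaves a gene with 1 probe set as it is. Their lowest values were 1.63 for H60b, 2.38 for Pvr and 2.11 for Clec2d, all in Hi with columns centred on genes past the filter. Icam1 lay between -1.88 and -0.99 in Med and between -1.73 and -0.91 in Hi.

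**Figure D2:**
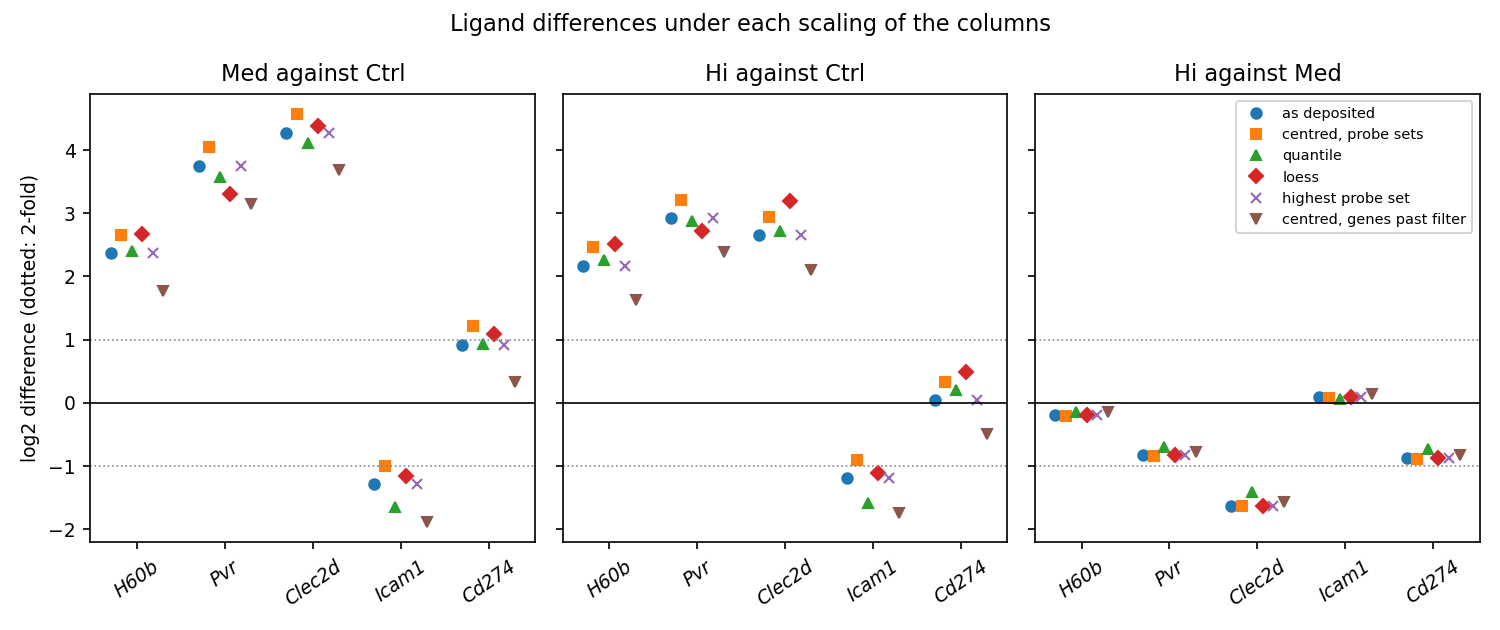
The log2 difference of each ligand (vertical axis) is drawn for the 3 comparisons, with 1 symbol for each of 6 settings (as deposited and highest probe set coincide for genes with 1 probe set) and dotted lines at 2-fold. H60b, Pvr and Clec2d stay above the upper line against Ctrl in every setting, Icam1 lies around the lower line, and Clec2d is the gene beyond 2-fold in Hi against Med (-1.63 to -1.41).

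Hi against Med compares the labelled levels of the cluster without the Ctrl column. H60b, Pvr, Clec2d and Cd274 were lower in Hi than in Med, and Icam1 was higher by 0.09. Clec2d was the 1 ligand at least 2-fold lower, where 0.863% of the genes were, and none was 2-fold higher, where 0.682% were. It had rank 15 of 9969 from the bottom. Cd274 had rank 130 (difference -0.87) and Pvr rank 154 (-0.83), both under 2-fold in every scaling tried. Clec2d stayed 2-fold lower in each, between -1.63 and -1.41.

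The spread of background genes was read beside these differences. Receptor genes differed between Hi and Med with an SD over genes of 0.09, and their central 95% ran from -0.16 to 0.22, with extremes of -0.61 and 0.66. Clec2d, Cd274 and Pvr lay beyond those extremes. H60b (-0.19) lay just outside the central range, with 14.4% of genes lower still, and Icam1 lay within it. This is a spread over genes of 1 pair of columns and not over replicate cultures. Receptor genes also lay lower than every ligand on the median (4.51 in Med and in Hi), so it does not measure noise at the ligands' levels. Many values were identical in Med and Hi, 45.9% of the genes past the filter, and none of the 5 ligands was among them.

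The order of the columns was not graded with the labelled level of the cluster. Med was the highest column for H60b, Pvr, Clec2d and Cd274 and the lowest for Icam1, so Hi lay between Ctrl and Med for all 5 in the values as deposited (Cd274 in Hi falls below Ctrl with centring on genes past the filter). The share of all genes with this order was not counted, so the order is not read as particular to these ligands. For H60b and Icam1 the step from Hi to Med was within or just outside the central spread of receptor genes. No order between these columns is read from it. That spread does not measure noise at the ligands' levels, so lying beyond it does not establish an order for Clec2d, Pvr or Cd274 either.

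**Figure D3:**
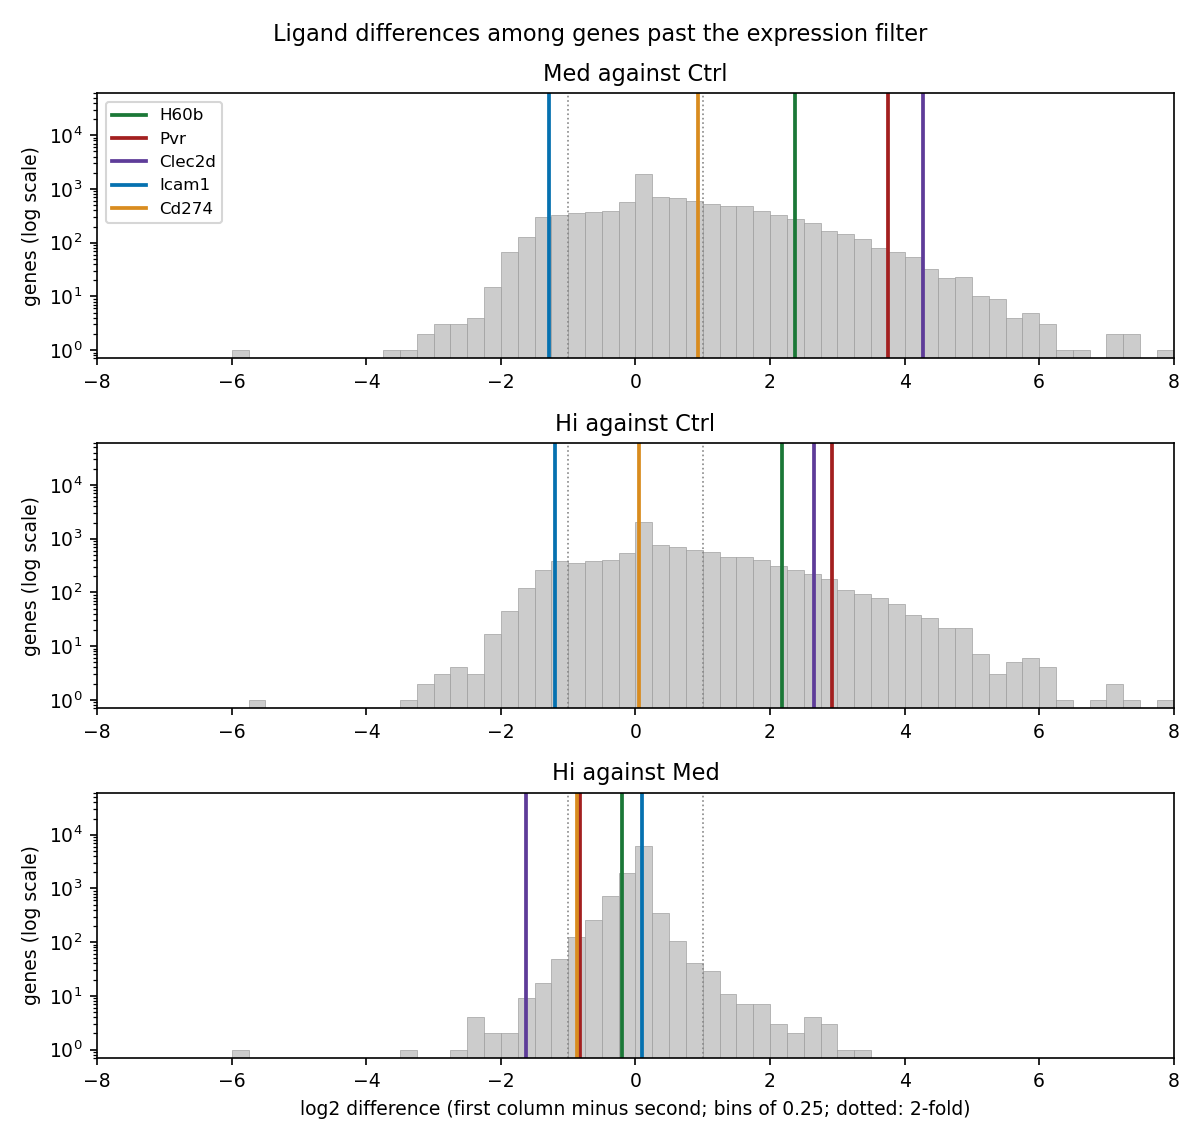
Grey bars count the genes past the expression filter (vertical axis, log scale) in bins of the log2 difference (horizontal axis) for each comparison, and coloured lines mark the 5 ligands. Against Ctrl the distribution is wide, with H60b, Pvr and Clec2d measured from a Ctrl level near background, while in Hi against Med it is narrow and Clec2d, Cd274 and Pvr lie in its lower tail.

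Relatives of each ligand were read from lists of genes grouped by family or role. Not every listed gene encodes a ligand (Nt5e and Tapbp do not), so counts over a list are not of ligands alone. Of 9 NKG2D ligands listed, 2 were matched to a probe set of 1 gene. Raet1d, of the RAE-1 family of NKG2D ligands and the nearest measured coding gene after H60b in RefSeq's gene order, was at 3.84 in every column. That is below the receptor median (4.92 in Ctrl, 4.51 in Med and Hi), so of the 2 measured NKG2D ligands H60b was the one above background, in Med and Hi. Raet1d and, in the next paragraphs, the nectins, the other Clec2 genes, neighbouring genes and Pdcd1lg2 were named after their values were seen.

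Pvr differed from the nectins, its relatives that bind the same receptor group or one another. Nectin2, the other DNAM-1 ligand, was at 7.73 (Ctrl), 7.73 (Med) and 7.89 (Hi). Nectin1 was at 8.01, 7.37 and 7.35, and Nectin3 and Nectin4 were below the expression filter. Nectin3, within the receptor range in each column, was at least 2-fold lower in Med (-1.19) and Hi (-1.05). The list has 5 genes, 3 of them past the filter, and Pvr was the 1 with a 2-fold higher level than in Ctrl. Of all genes past the filter, 34.9% (Med) and 33.5% (Hi) were that much higher. The genes next to Pvr in RefSeq order, Ceacam19 (6.51, 6.13 and 6.13) and Igsf23 (6.38, 5.82 and 5.82), were lower in Med and Hi.

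The 5 measured relatives of Clec2d on the list were no higher in Med or Hi than in Ctrl. Nor was Clec2m, a nearby gene not on the list, at 5.29, 5.11 and 5.11. Of 6 listed Clec2 genes matched, Clec2e, Clec2g, Clec2h and Clec2i had levels between 5.36 and 6.67 in Ctrl, within the receptor range. In Med they lay between 5.31 and 5.79. Clec2l, at 7.84, 6.24 and 6.43, lay above the receptor range in each column and was highest in Ctrl, where Clec2d was lowest. The neighbours of Clec2d in the NK gene complex were within the receptor range, Cd69 at 4.26, 3.92 and 3.92 and the receptor gene Klrb1f at 5.20 in every column. Clec2d thus stood above the receptor range in Med and Hi while the genes beside it lay within it.

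Icam1 was one of 8 adhesion and SLAM-type ligands, of which 4 passed the filter. The genes after it, Icam4 (7.41, 6.86 and 6.89) and Icam5 (7.94, 7.30 and 7.36), differed from Ctrl by -0.64 to -0.52. Those before it differed little or not at all, Mrpl4 at 8.96 in every column and S1pr2 at 9.04, 8.92 and 8.92. F11r, a junctional adhesion molecule, was at 7.42 (Ctrl), 10.25 (Med) and 10.13 (Hi). Cadm1, an adhesion molecule of epithelial and nerve cells, was at 7.79, 9.68 and 9.45. Adhesion ligands as a list therefore had members on both sides of Ctrl, 2 of 4 at least 2-fold higher and Icam1 lower. Of all genes past the filter, 34.9% (Med) and 33.5% (Hi) were that much higher and 8.7% and 8.4% lower. The median over all 8, filter or not, was -0.56 in Med and -0.55 in Hi, and over all genes measured -0.20 and -0.19.

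Cd274 was one of 22 genes matched on a list of checkpoint and costimulatory ligands, which also holds the enzyme genes Nt5e and Ido1. Of the 22, 10 passed the filter. Against Ctrl, 4 of these 10 were 2-fold higher or more in each column and none was lower by that much, where 34.9% (Med) and 33.5% (Hi) of all genes were higher. The filter favours genes high in Med and Hi. Over all 22 matched, 4 were 2-fold higher and 2 lower, and the median difference was -0.63 in Med and -0.56 in Hi, against 0.72 and 0.28 over the 10. Over all genes measured the median was -0.20 and -0.19. The list therefore has no direction that holds without the filter. Cd47, the "do not eat me" signal read by macrophages, was at 6.71 (Ctrl), 10.78 (Med) and 10.93 (Hi). The galectins Lgals9 (7.70, 11.52 and 11.71) and Lgals3 (10.14, 12.45 and 12.59) were also among the 4. Galectin-9 is a ligand of the checkpoint receptor TIM-3. The last was Nt5e (CD73), which makes adenosine outside the cell, at 7.71, 11.07 and 9.83, and it was named after its values were seen. In Hi against Med, Nt5e was the 1 gene of this list at least 2-fold apart (-1.23). Pdcd1lg2 (PD-L2), the other ligand of PD-1 and the next measured coding gene after Cd274, was at 6.07, 4.81 and 4.81, within the receptor range in each. Plgrkt, the nearest measured coding gene before Cd274, was higher in Med and Hi, at 6.68, 8.96 and 8.95. Its Ctrl level lay within the receptor range.

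MHC class I molecules are the main ligands of inhibitory NK receptors. Of 13 genes listed, 8 were matched to a probe set of 1 gene. The heavy chain genes H2-K1, H2-D1, H2-L, H2-T23 and H2-Q7 were not, so the counts leave out the classical molecules. Of the 8, 7 passed the filter. In each of Med and Hi 4 exceeded Ctrl by 2-fold or more, with none as far below it. Of all genes, 34.9% (Med) and 33.5% (Hi) were that high. The light chain gene B2m was at 6.19 (Ctrl), 13.20 (Med) and 13.15 (Hi). The peptide-loading factor Tapbp was at 8.13, 11.08 and 11.33, and the non-classical H2-Q4 at 7.17, 10.30 and 9.79. On the other side, H2-Q10 (5.80, 5.41 and 5.41) and Nlrc5, an activator of these genes (7.76, 7.10 and 7.15), were lower in Med and Hi and were named after their values were seen.

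Genes that act on the ligands were read in the same way. Of 19 genes of interferon-gamma and NF-kB signalling, all past the filter, 9 exceeded Ctrl by 2-fold or more in Med and 8 in Hi, and none was as far below it, where 34.9% and 33.5% of all genes were as far above. The medians of 0.81 and 0.77 became 0.36 and 0.39 with quantile normalization and 0.22 and 0.23 with centring on genes past the filter. The kinase Jak2 was at 6.51, 9.79 and 9.80, the receptor chain Ifngr2 at 7.74, 9.80 and 10.15, and the inhibitor Nfkbia, itself an NF-kB target, at 9.26, 11.52 and 12.07. In Hi against Med none of these 19 was 2-fold apart. Of 10 genes of PD-L1 stability and ligand shedding, 6 were at least 2-fold higher in each column, beside the same shares of all genes. Their median of 1.11 in each column became 0.42 in Med and 0.36 in Hi with quantile normalization. The sheddase Adam17 was at 7.99, 10.75 and 10.60, the disulfide isomerase Pdia6 at 7.89, 11.10 and 11.20 and the signalosome protease Cops5 at 6.35, 9.28 and 9.28. The Ctrl levels of Cops5, Jak2, B2m and Cd47 lay within the receptor range, so the size of their differences is uncertain too. Cmtm6, which keeps PD-L1 at the cell surface, was 0.75 above Ctrl in Med and 0.07 above it in Hi, with Hi minus Med at -0.68. Like Cd274 it was highest in Med, and it was named after its values were seen.

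Receptors that read these ligands were mostly, but not all, within the background range. Of 21 receptor genes of NK and T cells, 13 lay within the range of olfactory and vomeronasal receptors in every column and 5 lay above it in every column. Klrk1, which encodes NKG2D, was at 4.67, 4.51 and 4.51, and Ncr1, an NK cell marker, at 5.36, 4.55 and 4.69, within that range. Above it were Itgb2, a chain of the Icam1 receptor LFA-1, at 7.77 in every column, and Pdcd1, which encodes PD-1, at 7.22, 6.52 and 6.52. These 4 were named after their values were seen. Tigit, the inhibitory receptor for Pvr, was also above it, at 7.29 (Ctrl), 8.45 (Med) and 8.61 (Hi).

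**Figure D4:**
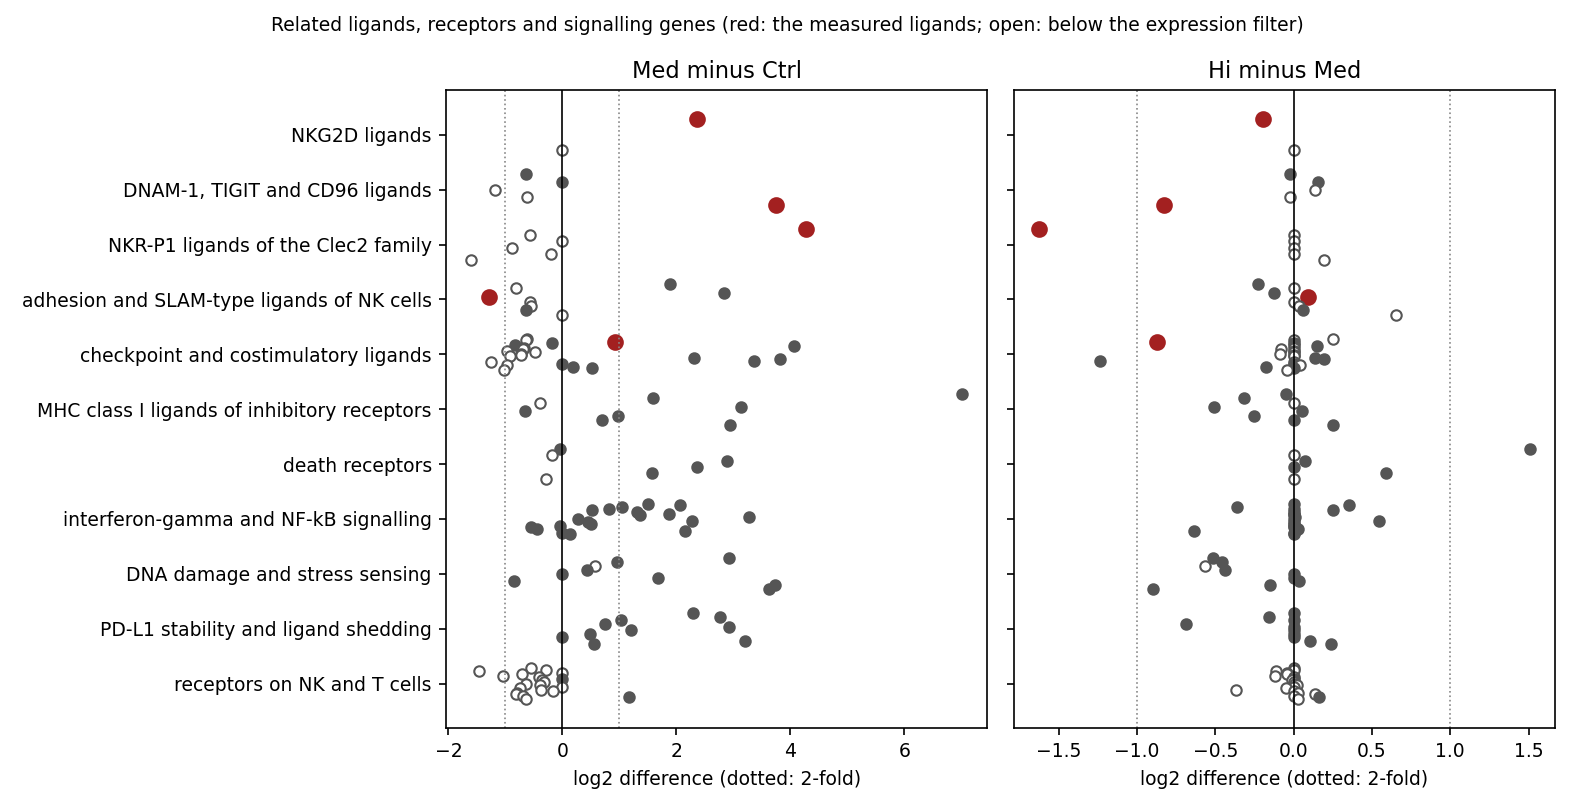
Each point is 1 gene of the lists on the vertical axis, placed at its log2 difference Med minus Ctrl (left) or Hi minus Med (right), with the measured ligands in red, genes below the expression filter open and dotted lines at 2-fold. Pvr and Clec2d lie apart from the other genes of their own lists on the left, and Clec2d is the leftmost point on the right.

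Promoters were read for the ligands that RefSeq's table of promoters held, which were Clec2d, Icam1 and Cd274. They are shown because Clec2d and Icam1 differed from Ctrl in opposite directions and Cd274 shares inducers with Icam1. Each window has 300 bases, 250 before the transcription start and 50 after it, from the reference strain C57BL/6J (GRCm38.p6), whereas CT26 comes from another strain. Capitals mark matches, on either strand, to any of 5 motifs. These were kappaB-like (GGNNNTTCC), the core of the interferon-stimulated response element (GAAANNGAA), the gamma-activated sequence (TTCNNNGAA), AP-1 (TGANTCA) and E2F (TTTGGCGC). The kappaB-like and gamma-activated patterns can overlap.
Clec2d, chr6:129180365-129180664, plus strand: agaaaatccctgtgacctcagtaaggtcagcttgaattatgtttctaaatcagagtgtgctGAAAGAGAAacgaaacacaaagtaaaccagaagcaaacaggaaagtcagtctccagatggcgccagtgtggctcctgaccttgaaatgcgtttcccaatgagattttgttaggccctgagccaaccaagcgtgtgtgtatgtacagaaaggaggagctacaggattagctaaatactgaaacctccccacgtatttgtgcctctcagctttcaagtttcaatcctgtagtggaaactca
Icam1, chr9:21015690-21015989, plus strand: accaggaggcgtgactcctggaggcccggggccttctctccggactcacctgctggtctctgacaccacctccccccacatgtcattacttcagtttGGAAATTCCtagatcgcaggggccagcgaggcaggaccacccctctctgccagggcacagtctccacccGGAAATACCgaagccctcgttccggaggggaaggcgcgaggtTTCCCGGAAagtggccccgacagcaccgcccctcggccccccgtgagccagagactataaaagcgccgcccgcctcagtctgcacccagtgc
Cd274, chr19:29367188-29367487, plus strand: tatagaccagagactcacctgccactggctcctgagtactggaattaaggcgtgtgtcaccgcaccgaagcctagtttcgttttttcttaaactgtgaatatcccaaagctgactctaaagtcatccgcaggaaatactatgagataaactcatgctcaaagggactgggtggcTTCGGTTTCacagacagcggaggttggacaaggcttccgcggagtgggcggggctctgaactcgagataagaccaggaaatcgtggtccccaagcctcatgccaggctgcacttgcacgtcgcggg

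The Clec2d window held 1 match, to the interferon-stimulated response element core (GAAAGAGAA), 189 bases before the start. The Cd274 window held 1 match to the same core on the other strand (TTCGGTTTC), 76 bases before the start. The Icam1 window held 2 kappaB-like matches, GGAAATTCC at 153 and (on the other strand) GGAAATACC at 84 bases before the start, and 1 gamma-activated sequence, TTCCCGGAA, at 42. Of 32817 promoters of this length, 18.5% held the kappaB-like pattern, 8.55% the response element core, 8.29% the gamma-activated sequence, 7.81% the AP-1 motif and 0.515% the E2F motif. Such matches are frequent, and they describe letters and not binding. With 3 promoters, and none for H60b or Pvr, motifs cannot be compared with the direction of a ligand's difference.

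Genes most like each ligand were found by the distance between the pairs of differences from Ctrl in Med and Hi, over the 3 columns. Vwa5a was closest to Pvr, with 3.74 in Med and 2.91 in Hi (distance 0.01), followed by Snx2 (3.84 and 2.93) and Rsl24d1 (3.69 and 2.99). Cpsf2, Pwp1 and Smc6 were closest to H60b, each between 2.38 and 2.39 in Med and between 2.14 and 2.19 in Hi. Clec2d had no near match: Nceh1 (4.22 and 3.03) was closest at a distance of 0.38, before Samhd1 (distance 0.41) and Mad2l1 (3.79 and 2.77). Evpl, Col4a1 and Trio were closest to Icam1, each within 0.02 of its pair of values. Atg9b (0.93 and 0.10), Hhip (0.91 and 0.10) and Gadd45a (0.98 and 0.00) were closest to Cd274. A pattern over 3 columns has few shapes, so many genes lie near one another.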

How the data were processed

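Each sample's RNA (100 ng) was linearly amplified, labelled and put on an Affymetrix array, per the labels' protocols. The deposited values were read as log2, from their range of 2.13 to 14.8, because the sources used here state no log base. The submitters' processing notes name GCRMA and Affymetrix Expression Console, without role or version. Normalization came before deposit and may itself set differences between columns.

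Probe sets (35556) were named from GEO's platform annotation, updated by gene number to RefSeq GRCm38.p6. Of these, 21789 had 1 gene (21698 matched by number), 1621 several and 12146 none. Probe sets of 1 gene were averaged (19938 genes). Genes with a log2 difference of 1 (2-fold) or beyond were counted separately for each direction. There was 1 column per group, so no test was made. Unmapped value columns numbered 0.

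Alternatives were centring, quantile normalization, loess (span 0.3), the highest probe set, a 1.5-fold threshold and no filter. Centring on genes past the filter, and a filter on Med and Hi alone, were added after seeing the data. Named genes were the members, up to 3 others 2-fold apart between Hi and Ctrl per list, and the 3 genes most like each member. Members and lists were chosen with earlier results of these data known. The functions were tested on simulated data. Python 3.11.15, pandas 2.3.3, scipy 1.17.1 and statsmodels 0.14.6 were used.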

Additional observations from a re-analysis of the deposited data

How the results depend on the processing

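Of 60 recomputed differences of the 5 ligands, 55 kept their direction and their side of 2-fold. Another 15, from the highest probe set of a gene, could not differ because each ligand has 1 probe set, and are not counted. With columns centred on probe set medians, Icam1 fell under 2-fold (-0.99 in Med and -0.91 in Hi) and Cd274 in Med passed it (1.22), as it did under loess (1.10). Centring on genes past the filter, added after seeing the data, turned Cd274 in Hi from 0.05 to -0.49. Of these 5 changes, the 4 from centring follow from a shift common to all genes. The cause of the loess change was not tested. A 1.5-fold threshold gave 3 ligands apart in Hi against Med (Clec2d, Cd274 and Pvr) in place of 1. All other counts of ligands 2-fold apart, in either direction, were within 1.5 times, and a filter on Med and Hi alone, also added later, kept all 5 ligands. No replicate columns exist here to leave out. No paired analysis was possible because each group has 1 column. Of the medians of related gene lists, 101 kept their side of 2-fold, 15 lost it and 4 gained it. Signal near background in Ctrl limits the size of the H60b, Pvr and Clec2d differences.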

Other observations

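Death receptors, through which NK and T cells kill, were read as a further list with related genes. It also holds the ligand genes Fasl and Tnfsf10 and the related receptor gene Tnfrsf1b, so its counts are not of death receptors alone. Of 6 genes matched, 4 passed the expression filter, with 3 at least 2-fold higher than Ctrl in Med and 4 in Hi, where 34.9% and 33.5% of all genes past the filter were. The TRAIL receptor Tnfrsf10b was at 7.47 (Ctrl), 10.36 (Med) and 10.43 (Hi). The tumour necrosis factor receptors Tnfrsf1a (7.88, 10.24 and 10.25) and Tnfrsf1b (7.71, 9.28 and 9.87) were higher in both columns too. Fas was at 7.01, 6.96 and 8.47 and was named after its values were seen. Hi minus Med was 1.51 for Fas, opposite in sign to Clec2d.

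Of 9 genes of DNA damage and stress sensing matched, 8 passed the filter, with 4 at least 2-fold higher than Ctrl in each column, beside the same shares of all genes, and none 2-fold lower. The heat shock gene Hspa1a was below Ctrl by less than that, with differences of -0.85 in Med and -0.82 in Hi, and was named after its values were seen. Of the genes named next, Sting1 and Atm had Ctrl levels within the receptor range. Sting1, the adaptor of cytosolic DNA sensing, was at 6.84, 10.46 and 9.56. The damage kinase Atm was at 6.23, 9.16 and 8.65, and Myc at 8.48, 12.21 and 12.06. In Hi against Med 6 of the 9 were lower, with Sting1 at -0.89, and none was 2-fold apart.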
